A study of Mus musculus with 36 samples.

Results

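Acta2, Tagln, Cnn1, Myl9, Tpm1 and Tpm2, which encode contractile proteins of fibroblasts and smooth muscle, and Vim, Thy1 and S100a4, which serve as fibroblast identity markers, were followed by symbol through a table of read counts for 25239 mouse genes. All 9 were present in the table, 6 contractile and 3 identity genes. The rule named the genes and set no threshold on a measured value, though earlier results of these data were known when it was written. The study asked which RNAs are held in P-bodies, cytoplasmic condensates of RNA and protein, and how this differs between cell types. RNA of sorted P-bodies was sequenced beside RNA of the cytoplasmic fraction from which they were sorted, in 5 conditions with 2 libraries per fraction, 20 of the 36 libraries of the series.

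The mouse embryonic fibroblasts (MEFs) came from the trunk tissue of mid-gestation OKSM embryos and were harvested without induction. These embryos carry a doxycycline-inducible cassette of the reprogramming factors Oct4, Klf4, Sox2 and Myc. They also carry the rtTA transactivator and an EGFP reporter under Pou5f1 regulatory elements. The day 3 control cells were such MEFs after 3 days of doxycycline with LIF and ascorbic acid. The day 3 Nudt21 knockdown cells received in addition a short hairpin RNA against Nudt21 from a lentiviral vector with mCherry and puromycin resistance. The vector given to the day 3 control cells was not stated in the sources used here. Naive embryonic stem (ES) cells were grown with LIF and inhibitors of MEK and GSK3, and primed ES cells with activin A and bFGF. Cells of all 5 conditions carried a GFP-tagged LSM14A protein, driven by a constitutive EF1a promoter, which lit up P-bodies for sorting. The cytoplasmic fraction was a resuspended pellet of cleared lysate, so RNA that stays in the supernatant is not part of either fraction. Uninduced MEFs also differ from the day 3 cells in their culture medium, which cannot be told apart from the induction.

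Smooth muscle alpha-actin, encoded by Acta2, is the actin of contractile fibroblasts and forms stress fibres with myosin and tropomyosin. Many genes of this group are transcribed under serum response factor, which binds the CArG box and takes its cue from actin assembly and TGF-beta signalling. Loss of the mesenchymal programme, with loss of contractile genes, is a known early event when fibroblasts are reprogrammed. P-bodies hold mRNAs that are not being translated, together with decay factors and microRNA-bound Argonaute proteins. NUDT21 is a subunit of the CFIm complex, which favours distal polyadenylation sites and hence long 3′ UTRs.

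Library totals ran from 6769731 to 12772246 reads in ES cells and from 19384742 to 31185874 reads in MEFs and day 3 cells. The Nudt21 target was measured at 5.74 and 4.99 counts-per-million (CPM) in the knockdown cytoplasm and at 89.1 and 92.2 CPM in the day 3 control cytoplasm. All 14 fibroblast markers of a hand-written list, which summed to 44677 to 48541 CPM in the MEF cytoplasm, were detected there, while 8 pluripotency genes summed to at most 0.994 CPM. In the naive cytoplasm the pluripotency genes summed to 5888 to 7298 CPM. The fibroblast markers summed to 4312 to 4338 CPM in naive and to 664 to 668 CPM in primed cytoplasm. Some libraries stood apart. The 4 lung epithelial markers summed to 5.81 CPM in 1 MEF P-body library and to 87.8 CPM in the other, against at most 0.0166 CPM in the MEF cytoplasm. The immune markers ranged from 6.29 to 30.5 CPM over the MEF P-body libraries, in no stated order, and summed to at most 4.10 CPM in the MEF cytoplasm. Replicates lay farthest apart for naive cytoplasm and for P-bodies of the day 3 control, where the SD over genes of the log2 difference between replicates was 0.43 and 0.39, against 0.13 to 0.24 in the other groups. Results that rest on these libraries are given below with each of them left out where that changes a call. The study describes its sequencing libraries as biological replicates. Whether those of a group came from separate embryos, cultures or sorts was not stated for each condition, and p-values measure the spread between libraries.

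The genes lie on 5 chromosomes of the mm10 build, at positions given here from GENCODE M21. Acta2 is on the minus strand of chromosome 19 (chr19:34241090-34255590). Tagln (chr9:45929619-45936058, minus), Cnn1 (chr9:22099216-22109630, plus), Tpm1 (chr9:67022590-67049406, minus) and Thy1 (chr9:44043384-44048579, plus) are on chromosome 9. Myl9 (chr2:156775420-156781658, plus) and Vim (chr2:13573927-13582826, plus) are on chromosome 2. Tpm2 lies at chr4:43514711-43523765 on the minus strand and S100a4 at chr3:90603771-90606045 on the plus strand. All 9 are protein-coding, and counts are over their exons. The longest coding transcripts ranged from 498 bases for S100a4 to 2890 bases for Tpm1, and their 3′ UTRs from 141 bases in S100a4 to 1899 bases in Tpm1. Exons of Tagln overlapped those of Pcsk7 and Gm48529 on the other strand by up to 645 bases. Exons of S100a4 overlapped those of Gm42674 on its own strand by up to 156 bases. Whether the counting used strand, and how it divided shared reads, was not stated. The levels of Tagln, of S100a4, of the actins and of the tropomyosins are uncertain to that extent.

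Promoter stretches are shown because the CArG box links several contractile genes to serum response factor. RefSeq promoters of the GRCm38 assembly, 250 bases before to 50 bases after the start, were listed for 7 of the 9 genes, all except Tagln and Thy1. The CArG box was searched on both strands, which is the same search since it is its own reverse complement. A perfect CArG box occurred in 1.63% of 32851 promoters of this length, and one with up to 1 mismatch in its core in 9.98%. Only Myl9 held a perfect box, with its first base at position -161 from the start (the stretch is chr2:156775293-156775322, plus strand), and a second with 1 mismatch at position -99 (chr2:156775355-156775384). Acta2 held boxes with 1 mismatch at positions -84 (chr19:34255438-34255467, minus strand) and -34 (chr19:34255388-34255417). The windows of Cnn1, Tpm1, Tpm2, Vim and S100a4 held neither form. These RefSeq starts differ from the GENCODE spans given above. The Vim window (chr2:13574061-13574360) and both Acta2 boxes lie within those spans, so presence and position depend on the start used. Capitals mark the box.
Myl9 perfect box: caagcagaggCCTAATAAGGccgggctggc
Myl9 box with 1 mismatch: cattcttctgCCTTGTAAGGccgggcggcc
Acta2 upstream box with 1 mismatch: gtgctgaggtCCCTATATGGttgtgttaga
Acta2 downstream box with 1 mismatch: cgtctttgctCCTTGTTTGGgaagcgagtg

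MicroRNA matches are shown because the study examined microRNAs as a route of mRNAs into P-bodies. The mature sequences below are from RefSeq, with the seed, bases 2 to 8, in capitals.
let-7a-5p: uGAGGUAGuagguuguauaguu
miR-300-3p: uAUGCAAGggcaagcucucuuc
miR-381-3p: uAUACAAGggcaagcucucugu
The reverse complement of each seed was searched on the transcript strand in the 3′ UTR of the longest coding transcript of 20945 genes. The let-7a-5p match (CTACCTC) occurred in 8.86% of them, the miR-300-3p match (CTTGCAT) in 9.05% and the miR-381-3p match (CTTGTAT) in 11.2%. Among the 9 genes, 3 contractile ones held 1 let-7a-5p match each, Acta2 held 1 miR-381-3p match, and none held a miR-300-3p match. Positions count from 1 at the first base of the 3′ UTR, and capitals mark the match. The Cnn1 match starts at position 1339 of the 3′ UTR (stretch chr9:22109559-22109587, plus strand). That of Myl9 starts at position 44 (chr2:156781195-156781223, plus) and that of Tpm2 at position 1032 (chr4:43514872-43514900, minus). The Acta2 match starts at position 350 (chr19:34241300-34241328, minus).
Cnn1, let-7a-5p match: cgaagatctgcCTACCTCtgtttcctgag
Myl9, let-7a-5p match: atcccagtcacCTACCTCcccaacacata
Tpm2, let-7a-5p match: tttaccctcccCTACCTCacctgctgctt
Acta2, miR-381-3p match: agcgtataggaCTTGTATagattacatat

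In the cytoplasm of MEFs all 9 genes were abundant, and together they took 0.973% and 0.980% of all reads. Per kilobase of the longest coding transcript, Acta2 was highest at 1584 ± 19.3 CPM per kb (SD, n = 2). S100a4, which encodes a calcium-binding protein of motile cells, followed at 958 ± 246, and Vim, the intermediate filament protein of mesenchymal cells, at 806 ± 18.3. S100a4 overlapped Vim in its 2 libraries, so these neighbours in the order did not differ beyond their spread. The regulatory light chain gene Myl9 and the tropomyosin gene Tpm1 stood side by side at 620 ± 0.194 and 616 ± 8.09 CPM per kb, again within their spread. Tagln, encoding the actin-bundling protein transgelin, was at 455 ± 26.2 CPM per kb, and Tpm2 at 315 ± 9.53. Cnn1, encoding the actin-binding calponin 1, was lower at 149 ± 2.25. Thy1, a GPI-anchored surface protein, was lowest at 32.9 ± 1.51 CPM per kb.

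**Figure D1:**
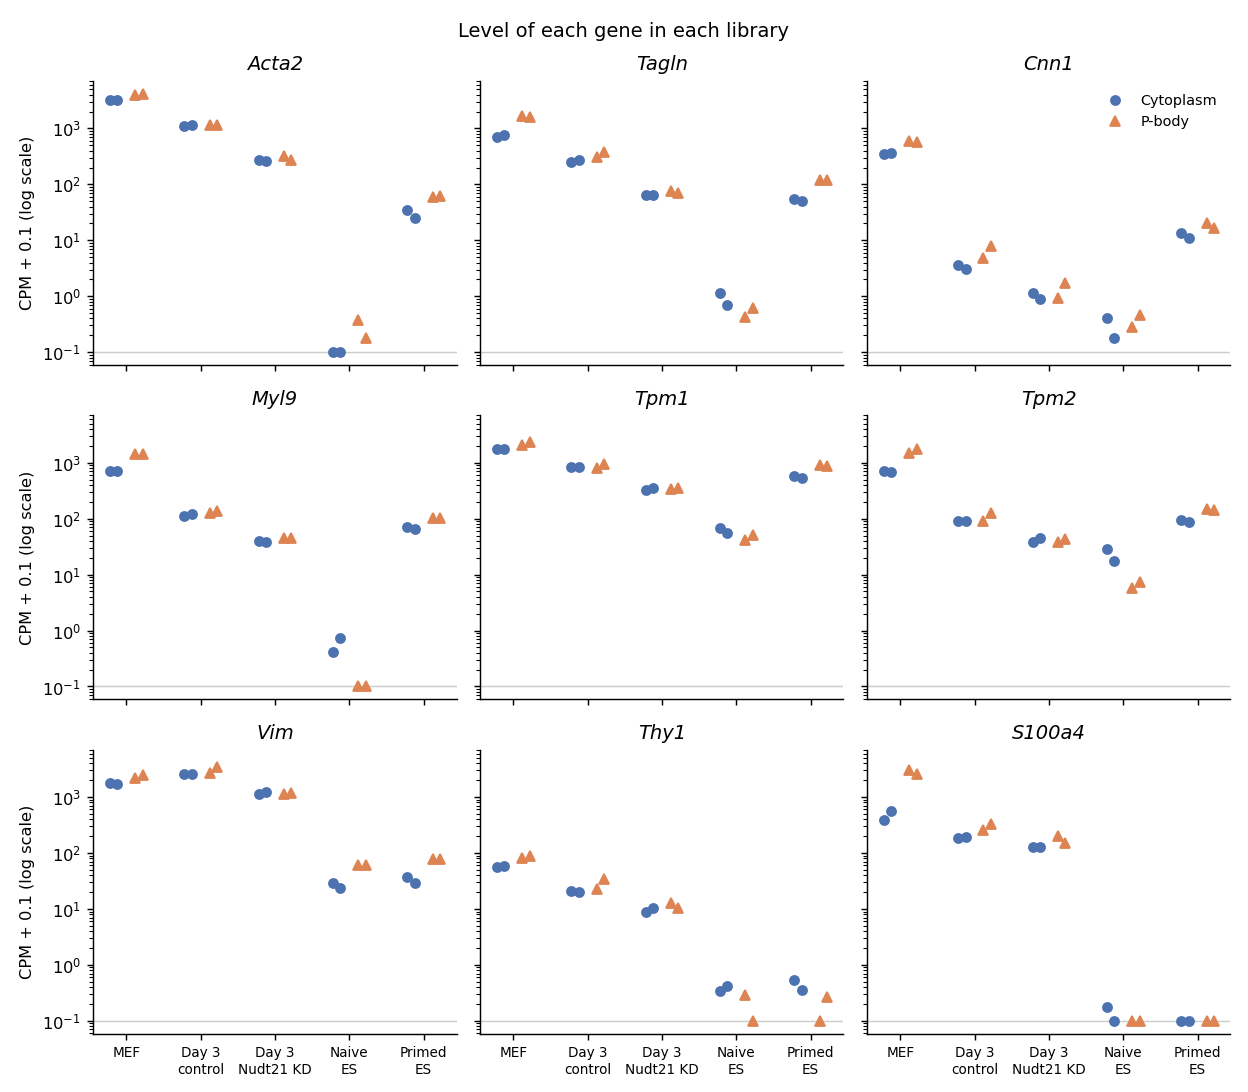
Level of the 9 genes in each of the 20 libraries, as CPM + 0.1 on a log axis, with cytoplasm libraries as circles and P-body libraries as triangles (1 point per library; the grey line at 0.1 marks 0 reads). Acta2 falls from a mean of 3223 CPM in the MEF cytoplasm to 0 reads in the naive ES cytoplasm, while Vim stays at or above 1118 CPM in all day 3 libraries.

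The first comparison asked how the cytoplasmic levels changed after 3 days of reprogramming. In the day 3 control, 8 of the 9 genes fell and Vim rose, where 69.3% of 16108 tested genes were called, 33.7% lower and 35.5% higher (edgeR quasi-likelihood test, Benjamini-Hochberg adjusted p under 0.05). In bulk RNA, fewer contractile cells and less contractile RNA per cell cannot be told apart. Cnn1 changed most. Its libraries were at 351.70 and 359.26 CPM in MEFs and at 3.48 and 2.96 CPM at day 3, a log2 fold change of -6.94 ± 0.09 (SE, adjusted p = 1.39e-17). The groups lay far apart and Cnn1 left the range of the other contractile genes.

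Both regulatory and filament-coating genes of the contractile set followed. Tpm2 stood at 700.17 and 670.86 CPM in MEFs and at 91.19 and 89.12 CPM at day 3 (log2 fold change -3.09 ± 0.06, adjusted p = 7.12e-16). Myl9 went from 698.69 and 699.00 CPM to 113.31 and 119.37 CPM (-2.75 ± 0.06, adjusted p = 1.89e-15). Tpm2 and Tpm1, paralogs that both coat actin filaments, fell to different degrees. Tpm1 was at 1795.89 and 1762.81 CPM in MEFs and at 850.09 and 837.59 CPM at day 3 (-1.24 ± 0.05, adjusted p = 2.94e-12), so it kept a larger share of its MEF level than Tpm2. Acta2 stood at 3250.80 and 3195.13 CPM and then at 1102.42 and 1144.64 CPM (-1.68 ± 0.05, adjusted p = 6.89e-14). Tagln stood at 695.58 and 754.58 CPM and then at 249.71 and 267.82 CPM (-1.65 ± 0.06, adjusted p = 1e-12). Acta2 and Tagln thus fell to similar degrees, 3.21-fold and 3.13-fold, and in none of the 6 contractile genes did the groups overlap.

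The identity genes divided. Vim was at 1795.83 and 1739.08 CPM in MEFs and at 2611.40 and 2610.82 CPM in the day 3 control, 1.32-fold higher (log2 fold change 0.40 ± 0.05, adjusted p = 1.41e-06). Per kilobase Vim then stood above all other members, at 1191 ± 0.185 CPM per kb. Thy1, whose loss from the surface is widely used to follow reprogramming, was at 55.28 and 58.99 CPM and then at 21.05 and 20.20 CPM (-1.63 ± 0.09, adjusted p = 1.33e-10). S100a4 was at 390.61 and 563.90 CPM and then at 181.88 and 194.46 CPM (-1.50 ± 0.11, adjusted p = 7.57e-09). The MEF replicates of S100a4 were farther apart than those of any other member, yet both lay above the day 3 libraries.

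Most further genes of the lists were also lower at day 3, with exceptions. Of 25 further actin and myosin genes tested, 19 fell and 4 rose, with a median log2 fold change of -0.84 beside 0.04 over all genes. Among those with at least 10 CPM, the called extremes were Myh11, the smooth muscle myosin heavy chain, at -5.69 ± 0.18 and Actg2, the enteric smooth muscle actin and a close paralog of Acta2, at 1.15 ± 0.06. Of 17 regulators of serum response factor and TGF-beta signalling or their direct targets, 15 fell and 1 rose. Of the 14 fibroblast markers 12 fell and 2 rose, from Pdgfra, a growth factor receptor, at -4.35 ± 0.16 to Dcn, the matrix proteoglycan decorin, at 0.52 ± 0.12. The fibroblast markers summed to 8453 to 8639 CPM at day 3. Pluripotency genes summed to 323 to 332 CPM, of which Pou5f1 and Sox2 are also transgenes, and of 6 tested epithelial genes all 6 rose.

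**Figure D2:**
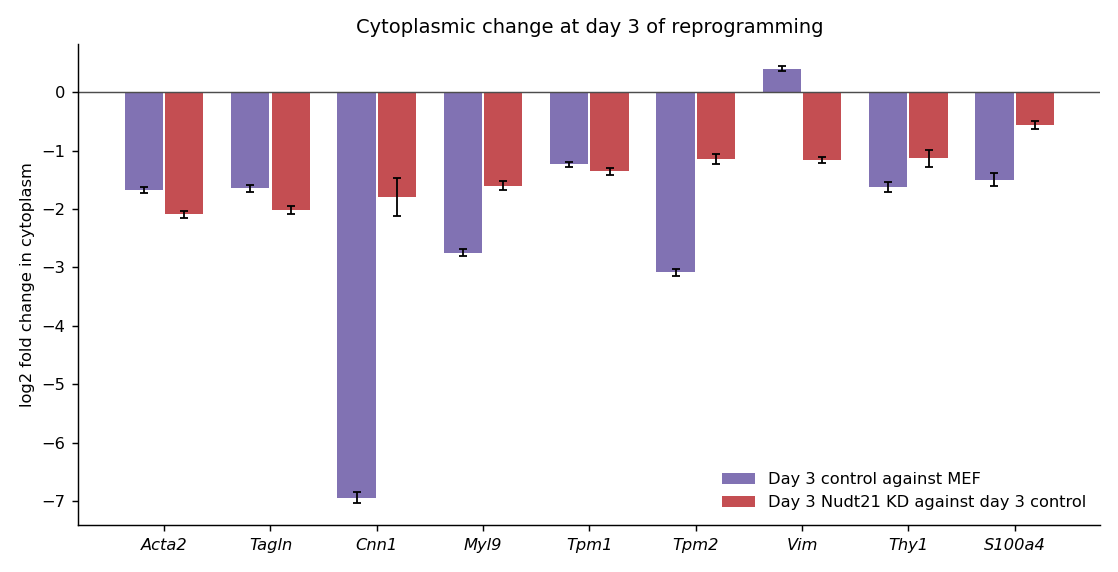
Log2 fold change of the 9 genes in the cytoplasm for day 3 control against MEF and for day 3 Nudt21 knockdown against day 3 control (bars, edgeR estimate; error bars, SE; 2 libraries per group). Vim is the 1 gene above 0 in the first comparison, at 0.40, and all 9 bars lie below 0 in the second.

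The second comparison asked what the knockdown of Nudt21 added at day 3. It uses the same day 3 control libraries as the first comparison, so the fold changes of both comparisons are not independent. All 9 genes were lower in the knockdown cytoplasm than in the control, where 49.6% of 15990 tested genes were called, 25% lower and 24.6% higher. Acta2 was at 276.71 and 257.36 CPM in the knockdown, 4.26-fold below the day 3 control (log2 fold change -2.09 ± 0.06, adjusted p = 8.79e-14). Tagln was at 64.66 and 64.64 CPM, 4.05-fold lower (-2.02 ± 0.07, adjusted p = 6.11e-13). These were the largest falls of the 9 genes, with Acta2 at the 2.24th percentile of all tested genes.

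Cnn1, already low, was at 1.02 and 0.80 CPM in the knockdown (-1.80 ± 0.33, adjusted p = 1.99e-04), which rests on 48.5 reads over both libraries. Myl9 was at 39.18 and 38.44 CPM (-1.60 ± 0.08, adjusted p = 3.53e-11). Tpm1 was at 318.98 and 349.05 CPM (-1.35 ± 0.06, adjusted p = 1.48e-11). The falls of Tpm1 and Tpm2 were closer to each other than in the first comparison. Tpm2 was at 37.66 and 45.11 CPM (-1.15 ± 0.09, adjusted p = 1.83e-08). Vim, which had risen in the day 3 control, was at 1117.83 and 1243.32 CPM in the knockdown, 2.24-fold lower (-1.16 ± 0.06, adjusted p = 3.23e-11) and under its MEF level in both libraries. Thy1 was at 8.62 and 10.50 CPM (-1.14 ± 0.14, adjusted p = 2.61e-06). S100a4 moved least, at 126.15 and 130.36 CPM (-0.57 ± 0.07, adjusted p = 2.06e-06). No member's groups overlapped.

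Around them, 22 of 25 further actin and myosin genes fell and 1 rose, with a median of -0.68 beside -0.01 over all genes. The called extremes were Cald1, encoding the actin-binding caldesmon, at -1.75 ± 0.06 and the calponin paralog Cnn3 at 0.31 ± 0.05. Of 16 regulators tested 8 fell and 3 rose, with Ccn2, a secreted target of TGF-beta, lowest at -1.57 ± 0.06 and Smad2 highest at 0.33 ± 0.08. Of the fibroblast markers 10 of 14 fell and none rose, from Col3a1 at -2.01 ± 0.06 to Twist1 at -0.47 ± 0.14. Of 6 tested pluripotency genes 4 rose and 1 fell. Among those that rose, Pou5f1 at 1.15 ± 0.07 and Sox2 at 1.29 ± 0.09 are also transgenes. Of 7 epithelial genes 4 rose and 2 fell, from Cdh1 at -0.88 ± 0.10 to Krt8 at 0.73 ± 0.11. The fibroblast marker sum was 3510 to 3515 CPM and the pluripotency sum 713 to 827 CPM, and their part in the falls of the members was not tested. The fibroblast sum was higher in naive ES cytoplasm, at 4312 to 4338 CPM, so it does not measure fibroblast content alone. Cd68, a lysosomal gene of macrophages, also rose, to 105 and 102 CPM (2.96 ± 0.11), while the pan-leukocyte gene Ptprc and the macrophage gene Adgre1 stayed at or near 0.

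P-body enrichment, the log2 fold change of P-body over cytoplasm libraries, was next compared between conditions. In MEFs all 9 genes were P-body-enriched, where 55.3% of 16198 tested genes were called, 26.6% higher and 28.7% lower. S100a4 had the strongest enrichment. It was at 3074.13 and 2534.75 CPM in P-bodies, against 390.61 and 563.90 CPM in the cytoplasm, 5.81-fold higher (log2 fold change 2.54 ± 0.16, adjusted p = 5.01e-06) and above 97.0% of tested genes. The lung markers, at 5.81 to 87.8 CPM, and the immune markers, at 6.29 to 30.5 CPM, were raised in the MEF P-body libraries. These ranges are not in replicate order, and the part of these markers in the S100a4 value was not tested. With each of the 4 libraries left out in turn, S100a4 stayed between 2.32 and 2.84.

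Of the contractile genes, Tpm2 was at 1502.48 and 1763.45 CPM in MEF P-bodies, 2.35-fold over the cytoplasm (1.23 ± 0.09, adjusted p = 8.53e-06). Tagln was at 1648.53 and 1614.50 CPM (1.15 ± 0.08, adjusted p = 5.34e-06). Myl9 was at 1443.48 and 1436.10 CPM (1.03 ± 0.07, adjusted p = 6.64e-06). Tpm2, Tagln and Myl9 thus stood more than 2-fold over the cytoplasm. Cnn1 was at 606.31 and 580.39 CPM (0.72 ± 0.08, adjusted p = 5.78e-05) and Thy1 at 81.41 and 88.76 CPM (0.56 ± 0.10, adjusted p = 0.00102). Vim was at 2232.91 and 2493.31 CPM (0.40 ± 0.08, adjusted p = 0.00195). Acta2, the most abundant member, was at 4024.98 and 4130.40 CPM (0.32 ± 0.07, adjusted p = 0.00246), and Tpm1 at 2096.29 and 2319.02 CPM (0.29 ± 0.08, adjusted p = 0.00935). The values of Vim, Acta2 and Tpm1 were small, 1.23-fold to 1.32-fold, and their calls did not hold without MEF cytoplasm replicate 2, where the adjusted p was 0.0535 for Vim, 0.0542 for Acta2 and 0.111 for Tpm1. Without MEF cytoplasm replicate 1, Tpm1 had an adjusted p of 0.0869. Acta2 and Tpm1 also lost their calls when all 20 libraries were fitted together (adjusted p = 0.0565 and 0.0775).

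**Figure D3:**
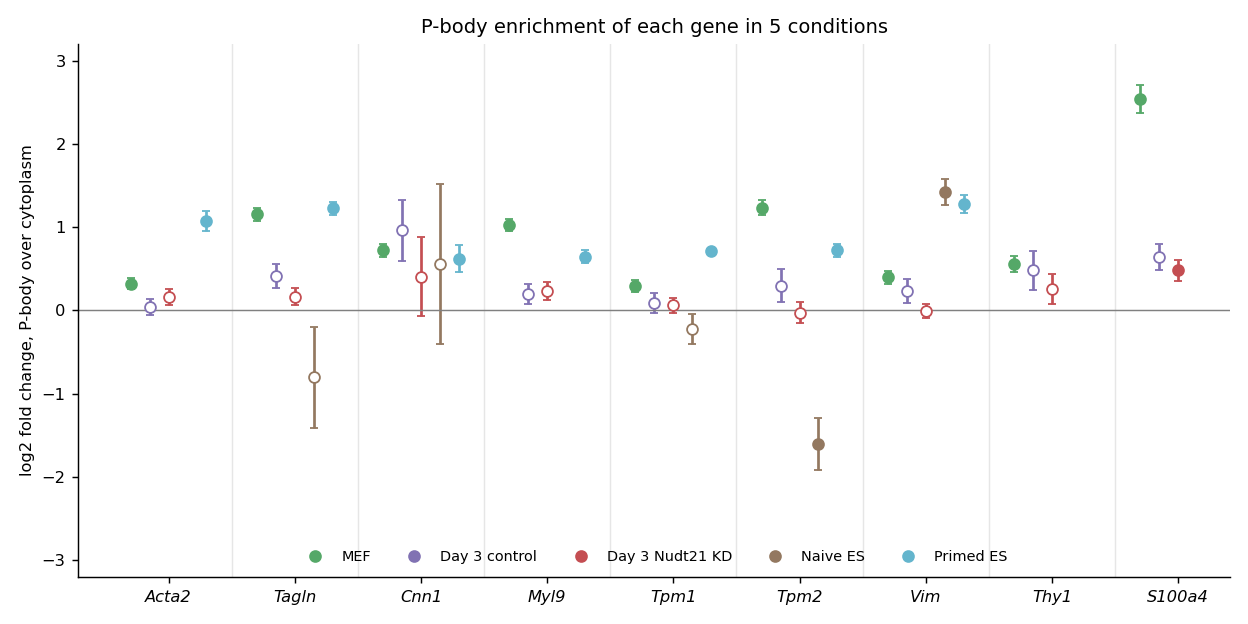
P-body enrichment of each gene in 5 conditions, as the edgeR log2 fold change of P-body over cytoplasm (points; bars, SE; filled, adjusted p under 0.05; 2 libraries per fraction). Values of genes that were not tested or had 0 reads in a fraction are not drawn. The 9 MEF points lie above 0, with S100a4 at 2.54, and the day 3 control points lie nearer to 0 in all genes except Cnn1.

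This set did not share the direction of its wider groups in MEFs. The median log2 fold change was 0.87 for the 6 contractile members and 0.56 for the 3 identity members, beside 0.03 over all genes. Of 26 further actin and myosin genes, 5 were higher and 12 lower in P-bodies, with a median of -0.31. The light chain gene Myl6 was highest at 1.6 ± 0.09 and the heavy chain gene Myh11 lowest at -2.95 ± 0.15. Of 17 regulators 2 were higher and 9 lower, with the receptor gene Tgfbr2 lowest at -2.15 ± 0.14. Of the 14 fibroblast markers, 2 were higher and 10 lower, with a median of -1.59. Fn1, the matrix protein fibronectin, was lowest at -2.52 ± 0.08, and Twist1, a mesenchymal transcription factor, highest at 1.04 ± 0.19. The fibroblast markers that were lower encode collagens, other matrix proteins, surface receptors and a cadherin.

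**Figure D4:**
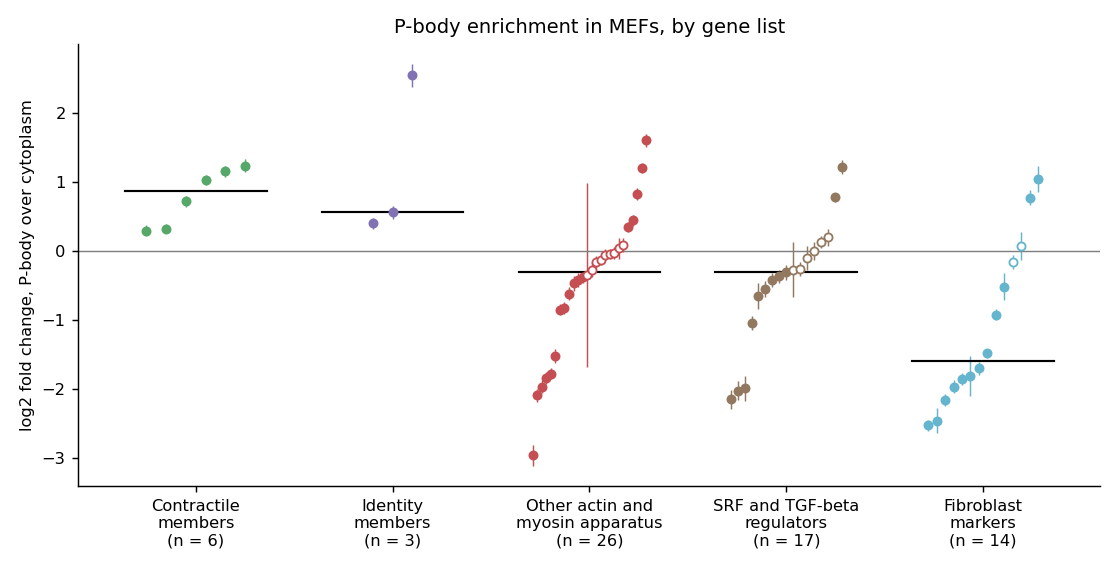
P-body enrichment in MEFs of the contractile and identity members and of 3 further gene lists (points, edgeR log2 fold change with SE, filled where adjusted p is under 0.05; black line, median of the list). The members lie above 0, while the medians of the other lists lie at -0.31, -0.31 and -1.59.

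Transcript length was set beside the MEF enrichment because it varied widely among the members. Across 14398 tested genes with a coding transcript, 88.9% of those tested, P-body enrichment fell with length (Spearman's rho -0.49 across genes, which share the libraries and are not independent). Over the 9 members rho was -0.65, with S100a4, the shortest, at the top and Tpm1, the longest, at the bottom. In the shortest decile of genes the median enrichment was 1.11, and Myl9 at 1.03 was close to it while S100a4 was 1.43 above. Tpm2 was 0.96 above the median of its decile, Cnn1 0.65, Tagln 0.57 and Tpm1 0.45. Acta2, Vim and Thy1 lay within 0.13 of theirs. The share of length in these values was not tested. The 3 contractile genes with a let-7a-5p match, Cnn1, Myl9 and Tpm2, had MEF enrichments of 0.72, 1.03 and 1.23. Those without it, Acta2, Tagln and Tpm1, had 0.32, 1.15 and 0.29, so the ranges overlapped. For let-7a targets the paper reports P-body enrichment in both ES states but none in MEFs. Its targets were chosen by miRDB score, whereas a bare seed match was used here. The MEF values therefore could not test the paper's microRNA result.

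**Figure D5:**
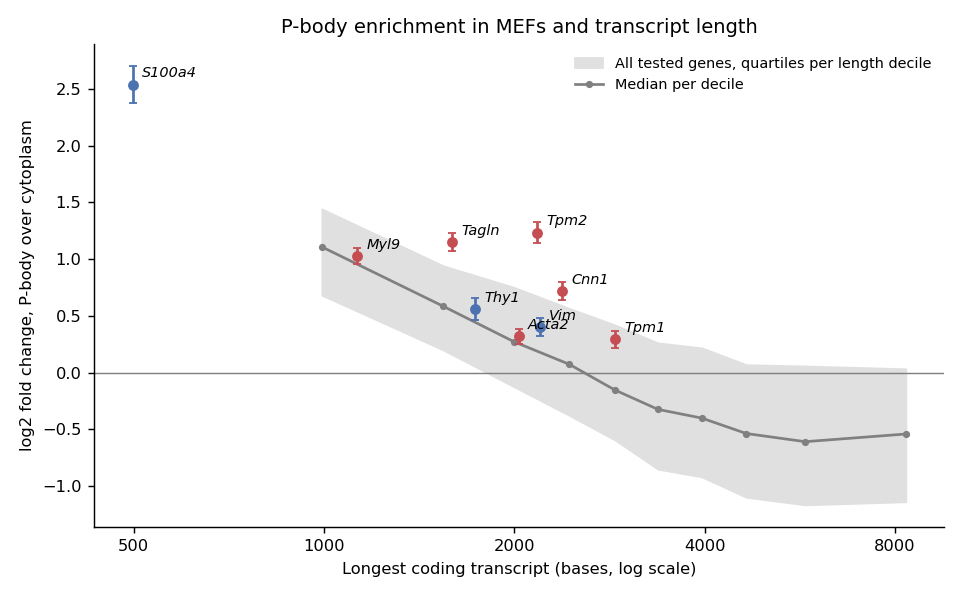
P-body enrichment in MEFs (log2 fold change, SE bars) against the length of the longest coding transcript (bases, log axis) for the contractile (red) and identity (blue) genes, over the median (grey line) and quartiles (grey band) of all tested genes per decile of length. The grey line falls from 1.11 to -0.54, and S100a4, Tagln, Tpm2 and Cnn1 lie above the upper quartile of their decile.

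In the day 3 control none of the 9 genes was called P-body-enriched by edgeR, where 0.646% of 15786 genes were called, 0.196% higher and 0.45% lower. At an unadjusted p under 0.05 there were 3899 genes, and DESeq2 called 2105, S100a4 among them. With the replicate number as a block edgeR called 802 genes, S100a4 among them (log2 fold change 0.63, adjusted p = 0.0454), and S100a4 was also called with no filter (adjusted p = 0.0121) and in the fit of all 20 libraries (adjusted p = 0.0277). The estimates ran from 0.04 to 0.96 and none was below 0. Cnn1 was at 4.62 and 7.79 CPM in P-bodies, against 3.48 and 2.96 CPM in the cytoplasm (0.96 ± 0.36, adjusted p = 0.178), and S100a4 at 255.92 and 325.71 CPM (0.65 ± 0.16, adjusted p = 0.0951). The count depended on which P-body libraries entered. Without replicate 1 of the day 3 control P-bodies 8 members were called higher, and without replicate 2 only Tagln and S100a4. For Acta2 the groups overlapped, at 1127.17 and 1157.51 CPM in P-bodies, and the fold change was 1.03, with a 95% interval of 0.875 to 1.21.

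The difference in enrichment between the day 3 control and MEFs was tested as an interaction over the 4 groups. Of the 9 genes 4 had lower enrichment at day 3 and none higher, where 14.7% of 17488 genes were called, 5.13% lower and 9.59% higher. S100a4 lost most, with a difference of -1.85 ± 0.25 on the log2 scale (adjusted p = 0.00217), from 2.54 in MEFs to 0.65. This call held with each of the 8 libraries left out, between -2.12 and -1.62. Tpm2 differed by -0.90 ± 0.23 (adjusted p = 0.0269), Myl9 by -0.79 ± 0.14 (adjusted p = 0.00636) and Tagln by -0.70 ± 0.17 (adjusted p = 0.0246). For Tpm2 and Tagln the call was lost in 6 of the 8 fits that left out a library, and the number of members called then ran from 1, without day 3 control cytoplasm replicate 2, where Myl9 was lost too (adjusted p = 0.0588), to 7, without day 3 control P-body replicate 2. With either MEF P-body library left out 2 members were called. The differences of Acta2, Cnn1, Tpm1, Vim and Thy1 were not called. That of Acta2 was 0.847-fold with an interval of 0.701 to 1.02, and that of Thy1 0.975-fold with an interval of 0.662 to 1.44. Among the 14 fibroblast markers the count ran the other way, with enrichment higher at day 3 in 8 and lower in 1. Their median enrichment was -1.59 in MEFs and -0.29 in the day 3 control, and that of the contractile members 0.87 and 0.25. Both medians were thus smaller in size at day 3, having had opposite signs in MEFs.

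In the day 3 Nudt21 knockdown, 1 of the 9 genes was P-body-enriched, where 21.9% of 15995 genes were called, 9.04% higher and 12.8% lower. S100a4 was at 203.46 and 152.52 CPM in P-bodies, against cytoplasm libraries at 126.15 and 130.36 CPM, 1.40-fold higher (log2 fold change 0.48 ± 0.13, adjusted p = 0.0233). The groups did not overlap, but the call was lost without cytoplasm replicate 1 (adjusted p = 0.143) or replicate 2 (adjusted p = 0.103). The other estimates lay between -0.03 for Tpm2 and 0.41 for Cnn1. Acta2 was at 316.27 and 276.80 CPM in P-bodies (0.16 ± 0.10), the lower of them less than 1 CPM above the higher cytoplasm library. Vim was at 1150.97 and 1186.08 CPM (-0.01 ± 0.09), within the range of its cytoplasm libraries.

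The contrast of enrichment between knockdown and control called almost no gene, so the lack of a call says little about the members. Of the 9 differences in enrichment between knockdown and control none was called by edgeR, where 0.0118% of 16973 genes were, 2 genes. At an unadjusted p under 0.05 there were 819 genes, and DESeq2 called 26. For S100a4 the difference was 0.910-fold with an interval of 0.646 to 1.28, and for Acta2 1.11-fold with an interval of 0.893 to 1.37. For Tagln, Vim and Tpm2 the estimates were 0.861-fold, 0.862-fold and 0.818-fold, and all 3 intervals included 1. A 1.5-fold change in either direction lay outside the intervals of 3 members, Acta2, Myl9 and Tpm1, while those of the other 6 reached it in at least 1 direction. Cnn1 had few reads and an interval of 0.275 to 1.76. With day 3 control P-body replicate 1 left out, 2 members were called, Tpm2 and Vim.

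In naive ES cells the set was nearly silent, apart from Tpm1, Tpm2 and Vim. All 9 genes were lower in the naive than in the MEF cytoplasm, where 71.8% of 16871 genes were called, 35.9% lower and 36% higher. Acta2, S100a4, Cnn1 and Thy1, with 0, 1, 5 and 7 naive cytoplasm reads, passed the read filter only through MEFs. Their calls therefore give no support of their own. Acta2 had 0 reads in both naive cytoplasm libraries, at least 26980-fold below MEFs when the floor is set at 3 reads over the group. S100a4 had 1 read in naive cytoplasm against 29173 in MEFs, a ratio of 11940 with an exact 95% counting interval of 2144 to 471800, which covers counting error only. Tagln was at 1.06 and 0.61 CPM, Myl9 at 0.31 and 0.65, Cnn1 at 0.31 and 0.08 and Thy1 at 0.23 and 0.32. Tpm1 remained at 68.35 and 55.94 CPM, 34.0-fold below MEFs (adjusted p = 3.19e-05), Vim at 28.89 and 23.84 CPM, 79.6-fold below (adjusted p = 2.60e-05), and Tpm2 at 28.11 and 17.59 CPM, 35.5-fold below (adjusted p = 8.80e-05). Tpm1 was then the highest member per kilobase at 21.5 ± 3.04 CPM per kb.

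Primed ES cells held the contractile genes at a higher level than naive cells. All 6 contractile genes rose in the primed cytoplasm, where 43.8% of 16125 genes were called, 21.6% higher and 22.1% lower. Of these, Acta2 and Cnn1, with 0 and 5 naive cytoplasm reads, passed the read filter only through the primed libraries. Their calls give no support of their own. Vim and Thy1 were not called and S100a4 had too few reads to be tested. Acta2 was at 34.27 and 25.38 CPM in primed cytoplasm, at least 246.7-fold over its floor in naive cells. Myl9 was at 70.31 and 64.59 CPM, 120-fold higher (log2 fold change 6.91 ± 0.29, adjusted p = 1.33e-04). Tagln was at 53.99 and 49.69 CPM (5.67 ± 0.29, adjusted p = 1.91e-04) and Cnn1 at 13.59 and 11.10 CPM (5.67 ± 0.52, adjusted p = 8.87e-04), with naive libraries near 1 CPM or below. Tpm1 was at 568.34 and 542.60 CPM (2.96 ± 0.16, adjusted p = 2.15e-04) and Tpm2 at 95.42 and 85.67 CPM (1.78 ± 0.26, adjusted p = 0.00361). Vim was at 37.08 and 29.43 CPM, 1.09-fold over naive cells with an interval of 0.770 to 1.56. The primed libraries of Cnn1 lay above those of the day 3 control, and those of Tpm2 overlapped them, values that come from other cells and were not compared by a test. Among 25 further actin and myosin genes 12 rose and 6 fell, from Cnn3 at -1.25 ± 0.11 to Cnn2 at 3.46 ± 0.24. The medians were 0.82 for these genes and 1.25 for the fibroblast markers, of which 3 of 10 tested were higher and 3 lower, beside -0.0033 over all genes. Of 7 epithelial genes 5 rose.

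P-body enrichment in ES cells was measured for fewer members. In primed cells 7 genes had enough reads, and all 7 were P-body-enriched, where 50.7% of 16177 genes were called, 26.5% higher and 24.2% lower. Vim was at 78.34 and 78.21 CPM in P-bodies against 37.08 and 29.43 CPM in the cytoplasm (log2 fold change 1.28 ± 0.11, adjusted p = 7.26e-07). Tagln was at 117.45 and 118.77 CPM in P-bodies (1.22 ± 0.08, adjusted p = 8.36e-08) and Acta2 at 59.10 and 62.68 CPM (1.07 ± 0.12, adjusted p = 1.20e-05). These 3 were more than 2-fold enriched, and for each the P-body libraries lay well above both cytoplasm libraries. Tpm2, Tpm1, Myl9 and Cnn1 followed between 0.72 and 0.62, of which Cnn1 (0.62 ± 0.16, adjusted p = 0.00675) lost its call without primed P-body replicate 1 (adjusted p = 0.0743) or primed cytoplasm replicate 2 (adjusted p = 0.0518). Length and enrichment were nearly unrelated across genes in primed cells (Spearman's rho -0.03 over 14719 genes, against -0.49 in MEFs). In the day 3 control and the knockdown rho was -0.37 and -0.42. In naive cells it was positive, 0.23 over all genes and 0.71 over the 6 members tested. These 6 include Myl9, with 0 P-body reads, and Tagln and Cnn1, with 32 and 11 reads, so the value over members is uncertain.

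In naive cells 6 members were tested, 1 was called higher and 1 lower, where 38% of 15630 genes were called, 22.6% higher and 15.4% lower. Vim was P-body-enriched, at 60.82 and 60.33 CPM against 28.89 and 23.84 CPM (1.42 ± 0.16, adjusted p = 0.00197). Tpm2 was depleted, at 5.76 and 7.16 CPM against 28.11 and 17.59 CPM (-1.61 ± 0.31, adjusted p = 0.0128), a call that was lost without either P-body library (adjusted p = 0.0914 and 0.0601). Tpm1 was at 41.32 and 50.22 CPM in P-bodies (-0.22 ± 0.18, adjusted p = 0.361), below both cytoplasm libraries. It was called lower without naive cytoplasm replicate 2 (-0.38, adjusted p = 4.50e-04). Vim was thus the only member called P-body-enriched in both ES states and in MEFs among those tested in all 3, although in MEFs that call depended on 1 library. Myl9 had 0 reads in naive P-bodies and 12 in the cytoplasm and was not called (adjusted p = 0.0551). Against an assumed floor of 3 reads over the group it would be at least 3.72-fold lower. Acta2, Thy1 and S100a4 had at most 9 reads over the 4 naive libraries and were not tested.

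Tested against MEFs, the naive P-body enrichment differed for 5 of the 9 genes, 4 lower and 1 higher. Of 18143 genes 41.3% were called, 19.8% lower and 21.5% higher. The 18143 include genes that passed the read filter through MEFs alone. Acta2, Thy1 and S100a4, with 4, 9 and 1 naive reads, entered only in that way, so they could not show whether enrichment differed. Tpm2 differed by -3.02 ± 0.30 on the log2 scale (adjusted p = 4.68e-05), from 1.23 in MEFs to -1.61 in naive cells. Tpm1 differed by -0.70 ± 0.19 (adjusted p = 0.0149), a call lost in 5 of the 8 fits with a library left out. Vim went the other way, with a difference of 0.83 ± 0.17 (adjusted p = 0.00295). Tagln differed by -2.14 ± 0.39 (adjusted p = 0.00168) and Myl9 was also called lower, but these rest on 32 and 12 naive reads. Over all genes the median of this difference was -0.17.

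Across the 10 group means of log2(CPM + 1), Myl9 was closest to the mean of the other contractile members (Pearson's r 0.991), followed by Tagln at 0.976 and Tpm1 at 0.975. Cnn1 was least like the rest of the contractile set, at 0.806, and Vim the least like it of all 9, at 0.707. Among 12245 genes, those most like the contractile mean were Pdlim2 (r 0.985), which encodes a PDZ and LIM protein, Pea15a (0.984), Tgfb1i1 (0.983), the focal adhesion protein Hic-5, Chst1 (0.978) and Gpx8 (0.978). Tgfb1i1 stood at 196 CPM in MEF cytoplasm, 43.5 in the day 3 control, 6.28 in primed and 0.316 in naive cytoplasm. These correlations describe 10 group means that share cells between fractions, and no test was made.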

How the data were processed

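RNA of sorted P-bodies and of the matching cytoplasmic fraction was sequenced by the authors with the SMART-Seq v4 kit, which primes on polyA tails. Read pairs were aligned with hisat2 to mm10, and featureCounts with refGene exons gave the deposited counts. These deposited expected counts held fractions of reads in 17.6% to 25.7% of values per library and were rounded for tests. How shared reads were divided was not stated. The authors' 10 tables of their own DESeq2 comparisons (fold changes and p-values) were not used, and the number of per-sample columns not used was 0.

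Sample titles gave the groups. edgeR 4.0.16 (limma 3.58.1, R 4.3.3) with TMM scaling served for 12 comparisons. The quasi-likelihood test was two-sided, and genes needed at least 10 reads over the libraries compared. Calls used a Benjamini-Hochberg adjusted p under 0.05 over all tested genes. Levels are CPM of the library total. Between-gene levels are per kb. Intervals of fold changes are 95%, from the SE and the degrees of freedom of each edgeR fit. The study's own test, DESeq2 (1.42.0 here), was an alternative. The edgeR script was tested on simulated data. Members and lists were chosen with earlier results of these data known. From each list, the called genes with the highest and lowest log2 fold change at a mean of at least 10 CPM are named, and the 5 genes with the most similar pattern. Python 3.11.15 and matplotlib 3.10.9 were used.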

Additional observations from a re-analysis of the deposited data

Results flagged for a closer look

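P-body enrichment differed between conditions, by the interaction test of edgeR with Benjamini-Hochberg adjustment, for these members. Between the day 3 control and MEFs the enrichment of S100a4 was lower by a log2 difference of -1.85, that of Tpm2 by -0.90, that of Myl9 by -0.79 and that of Tagln by -0.70. Between naive ES cells and MEFs it differed by -3.02 for Tpm2, -2.14 for Tagln and -0.70 for Tpm1, and by 0.83 for Vim. The fitted value of -7.14 for Myl9 in the latter comparison depends on the prior count, since its naive P-body libraries held 0 reads. Both comparisons use the same MEF libraries. The naive value of Tagln rests on 32 naive reads. As given above, the day 3 calls of Tpm2, Tagln and Myl9 and the naive call of Tpm1 did not hold with every library left out. With 1 library left out, the naive difference of Tpm1 ranged from -0.86 to -0.42. In no group of 2 libraries could a single library be tested as standing apart.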

How the results depend on the processing

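Of 1116 values of single members under alternative settings, 1020 kept their direction and their side of the threshold, 33 passed the threshold newly, 32 no longer passed it and 31 changed sign, none of the last called under the alternative. The member counts of the 4 cytoplasm comparisons, of MEF and primed enrichment and of naive ES minus MEF stayed within 1.5 times under every alternative run. Where counts moved further, the cause was not tested.

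For the day 3 control enrichment, 102 genes and 0 members were called. DESeq2 gave 2105 genes and 1 member, filterByExpr 202 genes, no filter 1940 genes and 1 member, and the fit of all 20 libraries 3308 genes and 3 members. All 20 libraries in 1 fit gave 2100 genes and 0 members for the knockdown enrichment, 4 members for naive enrichment, 5128 genes for primed enrichment and 4877 genes for knockdown against control cytoplasm. For the knockdown minus control difference, with 2 genes, DESeq2 gave 26 and no filter 62.

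Whether the replicate numbers pair P-body and cytoplasm libraries was not stated. The correlation of deviations ran from -0.06 to 0.20, at 0.18 and 0.20 in the day 3 control and the knockdown, with 2 pairs per condition, too few to settle it. With the replicate number as a block, the day 3 control enrichment had 802 genes and 1 member called and the knockdown minus control difference 1 gene. Of 102 member values under the block, 101 kept their call, and S100a4 in the day 3 control passed newly.

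With 1 library left out, an arm holds 1 library, which is assumed to vary like the others. Genes called then ranged from 5595 to 9976 for MEF enrichment, 82 to 8752 for day 3 control, 1017 to 5729 for knockdown, 2056 to 10018 for naive, 2242 to 9799 for primed against naive cytoplasm, 259 to 5546 for day 3 control minus MEF and 0 to 2185 for knockdown minus control. Members called ranged from 0 to 8 for day 3 control enrichment, 0 to 2 for knockdown, 1 to 3 for naive, 1 to 7 for day 3 control minus MEF and 0 to 2 for knockdown minus control.

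Values that changed sign were, on the log2 scale, as follows. With 1 library left out, day 3 control enrichment ranged from -0.0049 to 0.085 for Acta2, -0.053 to 0.21 for Tpm1 and -0.017 to 0.55 for Tpm2. Knockdown enrichment ranged from -0.18 to 0.82 for Cnn1, -0.011 to 0.14 for Tpm1, -0.16 to 0.12 for Tpm2 and -0.094 to 0.080 for Vim. Naive enrichment of Cnn1 became -0.087 in the 1 fit it entered, and Vim in primed against naive cytoplasm ranged from -0.034 to 0.32. Day 3 control minus MEF ranged from -0.20 to 0.56 for Cnn1 and -0.40 to 0.17 for Thy1, and naive minus MEF from -0.99 to 0.92 for Cnn1. Knockdown minus control ranged from -0.018 to 0.14 for Myl9, -0.11 to 0.14 for Tpm1, -0.54 to 0.014 for Tpm2, -0.41 to 0.0040 for Vim, -0.47 to 0.13 for Thy1 and -0.37 to 0.067 for S100a4. For Tpm1 that difference was also -0.016 with DESeq2, -0.016 with DESeq2 size factors, -0.0044 with filterByExpr and -0.0019 with no filter. In the fit of all 20 libraries Acta2 was -0.0065 in the day 3 control and Vim 0.0088 in the knockdown.

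Scaling by library totals in place of TMM shifted the median of all genes by -0.22 in naive enrichment, 0.16 in day 3 control against MEF cytoplasm, 0.25 in naive against MEF and 0.20 in primed against naive cytoplasm. Depth limits Acta2, Cnn1, Myl9, Tagln, Thy1 and S100a4 in naive ES cells.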
